A study of Mus musculus with 6 samples.

Results

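Cxcl9, Cxcl10, Cxcl11 and Cxcl16 encode CXC chemokines that attract T cells. Their 4 rows were taken by gene symbol from the 14097 genes for which the authors deposited expression values of colonic macrophages (MΦs). Each value is a normalized count, that is, the reads of a gene in a library divided by a factor that sets the libraries on one scale. The cells were the P3/P4 MΦs of the colonic lamina propria, the mature tissue MΦs of the gut wall, sorted as CD45+, CD11b+, CD11cint, CD103-, CD64+, Ly6C- and MHCII+. They came from untreated 129SvEv mice of 2 genotypes at 1, 3 and 12 weeks of age. Il10rb-/- mice lack the IL10Rβ chain in every cell of the body and not only in MΦs, and the comparison mice were Il10rb+/- littermates from the same cages, which still carry 1 null allele. There was 1 library for each genotype at each age, 6 in all. Those at 3 and 12 weeks came from 1 mouse each, and those at 1 week from several colons pooled.

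CXCL9, CXCL10 and CXCL11 are secreted proteins that share 1 receptor, CXCR3, which is carried by activated T cells and natural killer cells. All are induced by interferons, and CXCL10 is in addition a classic target of NF-κB. CXCL16 is built differently, as a chemokine domain on a stalk in the cell membrane. It binds CXCR6 on T cells while anchored, and the proteases ADAM10 and ADAM17 cut it free. Il10rb encodes a chain of the receptor for interleukin-10, which restrains MΦ activation, and the same chain also serves the receptors of interleukin-22 and the lambda interferons.

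Cxcl9 (ENSMUSG00000029417) lies at chr5:92321347-92328079 of GRCm38, Cxcl10 (ENSMUSG00000034855) at chr5:92346638-92348889 and Cxcl11 (ENSMUSG00000060183) at chr5:92359544-92365485, all on the minus strand. Cxcl16 (ENSMUSG00000018920) lies on another chromosome, at chr11:70453983-70459984, also on the minus strand. Cxcl11 is annotated by GENCODE as a polymorphic pseudogene and by RefSeq as a transcribed pseudogene in the C57BL/6J reference genome. The mice were 129SvEv, so the values describe RNA aligned to this locus and not a protein.

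RefSeq promoter windows were at hand for Cxcl9 and Cxcl10, which behaved differently in the data below. The 250 bases before each transcript start are printed with matches to 3 fixed letter patterns marked, and sites spelled otherwise would not be marked. Both are on the minus strand of GRCm38.p6, at chr5:92348890-92349139 for Cxcl10 and chr5:92328080-92328329 for Cxcl9. Capitals mark matches to an interferon-stimulated response element, ISRE (GAAA, then 2 bases of any kind, then GAAA), or a gamma-activated site, GAS (TTCNNNGAA). They also mark matches to an NF-κB pattern, GGGRNNYYCC, where R is A or G, Y is C or T and N is any base. The search covered both strands of a window of 300 bases that adds 50 bases from the start onward.
Cxcl10: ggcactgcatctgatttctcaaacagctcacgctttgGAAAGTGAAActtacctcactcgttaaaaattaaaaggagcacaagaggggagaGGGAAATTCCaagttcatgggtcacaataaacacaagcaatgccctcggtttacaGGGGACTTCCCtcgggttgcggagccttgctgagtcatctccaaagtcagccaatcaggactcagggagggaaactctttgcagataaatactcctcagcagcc
Cxcl9: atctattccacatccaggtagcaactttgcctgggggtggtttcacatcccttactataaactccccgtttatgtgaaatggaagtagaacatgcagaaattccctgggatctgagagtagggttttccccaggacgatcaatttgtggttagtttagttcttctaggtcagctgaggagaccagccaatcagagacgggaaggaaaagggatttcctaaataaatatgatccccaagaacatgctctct
The Cxcl10 window held 1 ISRE match, GAAAGTGAAA, from base -213 to -204 counted from the transcript start. It also held NF-κB matches from -159 to -150, from -104 to -95 and from -103 to -94, and the last 2 overlap in 1 stretch of capitals. No GAS match was found in it, and the Cxcl9 window held no match to any of the 3 patterns as spelled. Of all 32851 mouse windows of the same length, 3.44% held an ISRE match, 8.3% a GAS match and 8.46% an NF-κB match. Among the interferon-γ leaning targets described below, 9 of the 13 with a window held an ISRE match and 7 a GAS match, and among the type I interferon leaning targets 9 and 3 of 16 did.

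Sequencing depth on the listed genes ran from 6700337 reads in the Il10rb+/- library of 3 weeks to 40754971 in that of 12 weeks. Il10rb had 1231, 386 and 2341 reads in the Il10rb+/- libraries at 1, 3 and 12 weeks and 8, 28 and 43 reads in the Il10rb-/- libraries. All 12 MΦ marker genes checked were present in every library. Their summed normalized counts ran from 316254 to 478999. H2-Ab1, an MHC class II gene, was the highest of them in every library. It made up 398482 of the 478999 in the 12-week Il10rb-/- library, so the sum says little of the other markers. At 12 weeks, 4 of the 12 were higher in Il10rb-/- MΦs and 5 were over 3-fold lower. Of the 11067 genes that reached 50 normalized counts in at least 1 library, 52% were higher and 9.99% over 3-fold lower. The median log2 ratio of Il10rb-/- over Il10rb+/- in the 12 markers was -0.72. The range was from -6.30 for Cd163, carried by resident MΦs, to 1.05 for Itgax, the integrin CD11c. Markers of other cells differed as well. The summed normalized counts of the 6 neutrophil markers listed were 5097 in the 12-week Il10rb-/- library, 404 in its Il10rb+/- partner and between 1.98 and 12.2 at the younger ages. The 3 eosinophil markers listed summed to 52.2 in the 12-week Il10rb-/- library and to between 105 and 229 in the others. The 6 monocyte markers had median log2 ratios of 0.03 at 3 weeks and 2.59 at 12 weeks, and sums between 4990 and 35915. At 3 weeks they ran from -1.88 for Chil3 to 4.87 for Ly6c2, which had 4 reads in the Il10rb+/- library. At 12 weeks they ran from -0.59 for Fn1 to 4.19 for Ly6c2. The 7 dendritic cell markers summed at 12 weeks to 11886 in Il10rb+/- and 39828 in Il10rb-/- MΦs, of which Ccr7 made up 10331 and 38707. Siglech of the same list went the other way, from 1055 to no reads. Of the 5 that reached 50 normalized counts in a library, 4 were higher, where 52% of all genes were. The 7 B and plasma cell markers summed at 12 weeks to 17670 and 1911. At 1 week the 6 stromal markers summed to 222 and 1225, and the 11 epithelial markers listed to 186 and 987. Reads from 4 Y-linked genes numbered 1123 in the 1-week Il10rb+/- pool and between 5 and 46 in the other 5 libraries, so the 1-week libraries differed in the sex of their mice as well as in genotype. The part of these differences in the chemokine values was not tested. In sorted bulk RNA, fewer cells of a kind and less RNA per cell cannot be told apart.

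Cxcl9 was higher in Il10rb-/- than in Il10rb+/- MΦs at every age, and the difference was greater at 3 and 12 weeks than at 1 week. The 1-week libraries held 135 (Il10rb+/-) and 277 (Il10rb-/-) normalized counts, from 136 and 185 reads. The 3-week libraries held 195 and 2277, from 80 and 2589 reads, and the 12-week libraries 512 and 7744, from 1082 and 12162 reads. All 3 Il10rb+/- libraries lay at 512 or below, and the 1-week Il10rb-/- library at 277 lay within their range. The genotypes therefore overlapped over all ages.

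With 1 library per group, a single age has no test. The ratios have exact Clopper-Pearson 95% intervals from the reads, which cover counting error only. For Cxcl9 the log2 ratio was 1.04 (0.71 to 1.37) at 1 week, 3.55 (3.23 to 3.89) at 3 weeks and 3.92 (3.83 to 4.01) at 12 weeks, which is 2.05-fold, 11.7-fold and 15.1-fold. Of the 11067 genes that reached 50 normalized counts in at least 1 library, Cxcl9 ranked 504 from the top by this ratio at 1 week, 20 at 3 weeks and 71 at 12 weeks. It was over 3-fold higher at 3 and 12 weeks, as were 1.34% and 4.03% of all genes at those ages, and 0.642% and 9.99% were over 3-fold lower. The study drew Cxcl9 and Cxcl11 into its heat map because they differed over 3-fold between these same 3-week libraries, so their place at 3 weeks is a description.

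**Figure D1:**
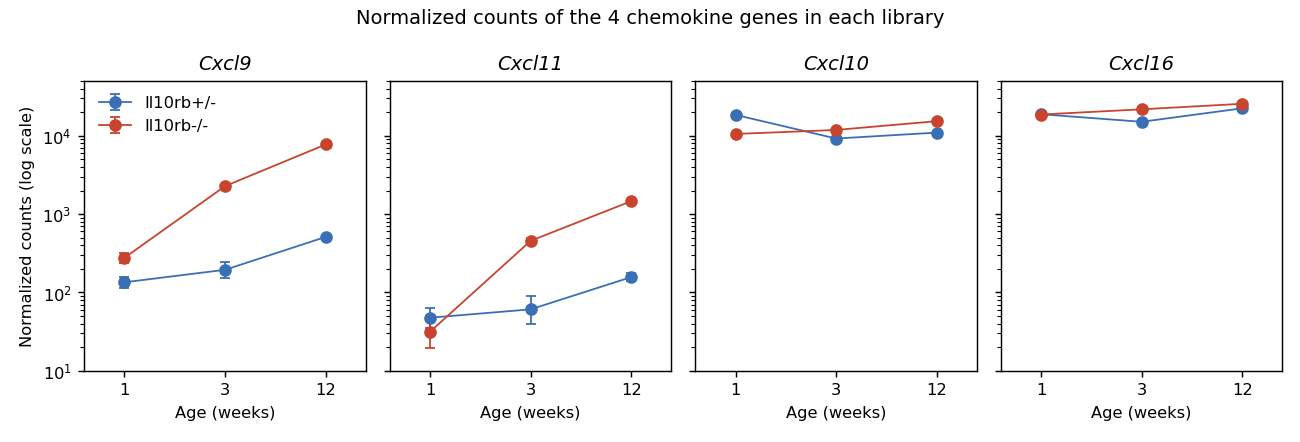
Normalized counts of each gene (y axis, log scale) against age in weeks (x axis, not to scale), with 1 point per library, blue for Il10rb+/- and red for Il10rb-/-. Error bars are exact Poisson 95% limits from the reads and lines join libraries of a genotype. Cxcl9 and Cxcl11 are higher in the Il10rb-/- library at 3 and 12 weeks, with Cxcl9 at 7744 in that of 12 weeks, whereas Cxcl10 and Cxcl16 stay between 9223 and 25617 in every library.

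Cxcl11 followed the course of Cxcl9 at 3 and 12 weeks at a lower level. Its normalized counts, Il10rb+/- first and Il10rb-/- next, were 47.6 and 31.5 in the 1-week libraries, 60.8 and 455 in those of 3 weeks and 157 and 1463 in those of 12 weeks. The reads behind them numbered 48 and 21, 25 and 518, and 332 and 2297. Both 1-week values were under 50, and the Il10rb-/- value was there the lowest of the 6 libraries. The log2 ratio at 1 week was -0.60 with an interval of -1.41 to 0.17, so a difference between the 1-week libraries was not detectable at this depth. At 3 and 12 weeks it was 2.90 (2.33 to 3.55) and 3.22 (3.05 to 3.39), which is 7.49-fold and 9.32-fold. Cxcl11 ranked 44 of 11067 at 3 weeks and 97 at 12 weeks, close to Cxcl9 in both lists.

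Cxcl10 was abundant in every library and differed by less than 2-fold between genotypes, with opposite directions at 1 week and at the later ages. In the same order, it reached 18499 and 10553 normalized counts in the 1-week libraries, 9223 and 11871 in those of 3 weeks and 10980 and 15364 in those of 12 weeks. The highest and the lowest of the 6 values were both Il10rb+/- libraries, and the genotypes overlapped. The log2 ratio was -0.81 (-0.85 to -0.77) at 1 week, 0.36 (0.31 to 0.42) at 3 weeks and 0.48 (0.46 to 0.51) at 12 weeks. None reached 3-fold. At 1 week, where Cxcl10 ranked 10618 of 11067, 2.75% of all genes were over 3-fold higher in Il10rb-/- MΦs and 0.75% over 3-fold lower.

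Cxcl16, the membrane-bound chemokine, had the narrowest spread. The Il10rb+/- libraries of 1, 3 and 12 weeks held 18852, 15088 and 22415 normalized counts, and the Il10rb-/- libraries 18685, 21769 and 25617. The lowest of the 6 was the 3-week Il10rb+/- library, which was also the shallowest, and the other 5 lay within a factor of 1.37. The log2 ratio was -0.01 (-0.05 to 0.02) at 1 week and 0.53 (0.49 to 0.57) at 3 weeks. At 12 weeks it was 0.19 (0.17 to 0.21) and turned to -0.028 when libraries were scaled by total reads, a scaling that moved the median of all genes by -0.22. Taken against that median, it was 0.16 under both scalings.

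**Figure D2:**
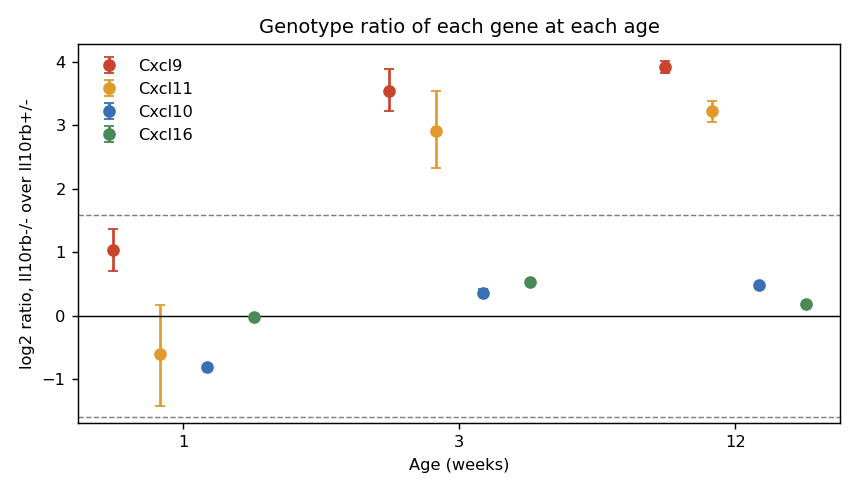
Log2 ratio of Il10rb-/- over Il10rb+/- normalized counts (y axis) for each gene at each age in weeks (x axis). Bars are exact 95% counting intervals, hidden by the point where narrow, and dashed lines mark 3-fold. Cxcl9 and Cxcl11 lie above 3-fold at 3 and 12 weeks, and Cxcl10 and Cxcl16 lie between -0.81 and 0.53 at every age.

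The comparison with replication sets the 3 libraries of one genotype against those of the other, with age as a term. Its error starts from how much the genotype difference of a gene varied from age to age. By empirical Bayes moderation that error is then drawn towards the error of genes at a similar level. The comparison was fitted with limma on log2 of the normalized count plus 1 over the 11067 genes, with Benjamini-Hochberg adjustment. No gene was called at 0.05, which is 0% higher and 0% lower, while 853 genes had an unadjusted p under 0.05. Cxcl9 had a log2 difference of 2.83 (SE 0.56, limma unadjusted p = 0.0030, adjusted p = 0.561) and was higher at 3 of 3 ages. Cxcl11 had 1.84 (SE 0.76, limma adjusted p = 0.627), Cxcl16 0.24 (SE 0.21, adjusted p = 0.710) and Cxcl10 0.01 (SE 0.30, adjusted p = 0.992), each higher at 2 of 3 ages. The direction of Cxcl10 turned to -0.075 when libraries were scaled by total reads.

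The call depended on which ages entered. Without the 1-week libraries, which leaves 2 libraries per genotype, limma called 19 genes higher in Il10rb-/- MΦs (0.172% of those tested) and 1 lower (0.00904%), and Cxcl9 and Cxcl11 were among them. Cxcl9 had a log2 difference of 3.73 (SE 0.24, limma adjusted p = 0.00773) and Cxcl11 of 3.05 (SE 0.28, limma adjusted p = 0.0225). In that fit Cxcl10 had 0.42 (limma adjusted p = 0.643) and Cxcl16 0.36 (limma adjusted p = 0.715). Without the 12-week libraries, 51 genes were called higher (0.461%) and 10 lower (0.0904%). Cxcl9 was called there as well, at 2.29 (SE 0.39, limma adjusted p = 0.0133), while Cxcl11 had 1.15 (limma adjusted p = 0.652). Without the 3-week libraries neither was called, with limma adjusted p = 0.429 for Cxcl9 and 0.854 for Cxcl11. Each fit that called Cxcl9 or Cxcl11 holds the 3-week libraries by which the study had picked these genes. Those calls are therefore descriptions and not independent tests. A single age could not be tested with 1 library per group, and a difference between ages was not tested.

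Between 1 and 3 weeks, Cxcl9 and Cxcl11 were far higher at the later age in Il10rb-/- MΦs. The log2 ratio of 3 over 1 week was 3.04 (2.82 to 3.26) for Cxcl9 and 3.86 (3.23 to 4.56) for Cxcl11 in Il10rb-/- libraries. In Il10rb+/- libraries it was 0.53 (0.11 to 0.94) for Cxcl9 and 0.35 (-0.40 to 1.08) for Cxcl11. From 3 to 12 weeks both genes were higher at the later age in both genotypes and by nearer amounts, 1.39 (1.07 to 1.74) in Il10rb+/- and 1.77 (1.70 to 1.83) in Il10rb-/- MΦs for Cxcl9, and 1.37 and 1.68 for Cxcl11. These ratios share libraries with one another and with the genotype ratios. Cxcl10 stood at 0.499 of its 1-week level in 3-week Il10rb+/- MΦs (log2 interval -1.05 to -0.95), while the log2 ratio was 0.17 (0.13 to 0.21) in Il10rb-/- MΦs. Cxcl16 differed by -0.32 in Il10rb+/- and 0.22 in Il10rb-/- MΦs over the same interval.

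The make-up of the CXCR3 ligands can be compared per kilobase of annotated exon. Cxcl10 was the main ligand transcript in all 6 libraries on that scale, and its share was lowest in the older Il10rb-/- libraries. Of the summed level of the 3 ligands it made up 99.3%, 98.1% and 95.9% in Il10rb+/- MΦs of 1, 3 and 12 weeks and 97.9%, 85.8% and 69.8% in Il10rb-/- MΦs. Cxcl9 made up 0.541%, 1.55% and 3.33% in the former and 1.92%, 12.3% and 26.3% in the latter. Cxcl11 did not exceed 3.94%, its share in the 12-week Il10rb-/- library.

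The ratio of Cxcl10 to Cxcl9 levels per kilobase was 184 (155 to 219) in the 1-week Il10rb+/- library and 51.0 (44.1 to 59.3) in its Il10rb-/- partner. The 3-week pair had 63.4 (50.8 to 80.2) and 6.98 (6.70 to 7.29), and the 12-week pair 28.7 (27.0 to 30.6) and 2.66 (2.60 to 2.72), with intervals for counting error only. The Il10rb-/- value was the lower at each age. The annotated exons of Cxcl10 together cover the whole gene, 2252 bases, while its longest coding transcript has 1353. With coding transcripts as the length, the Cxcl10 to Cxcl9 ratio at 12 weeks was 45.8 and 4.24. Cxcl10 and Cxcl16 were both at or above the percentile 98.7 of genes per kilobase in every library, and which of them was higher depended on the length used in 4 of the 6 libraries. Under both lengths Cxcl10 was the higher in the 1-week Il10rb+/- library, at ratios to Cxcl16 of 1.32 and 1.96, and Cxcl16 in that of 12 weeks, at 0.657 and 0.977.

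**Figure D3:**
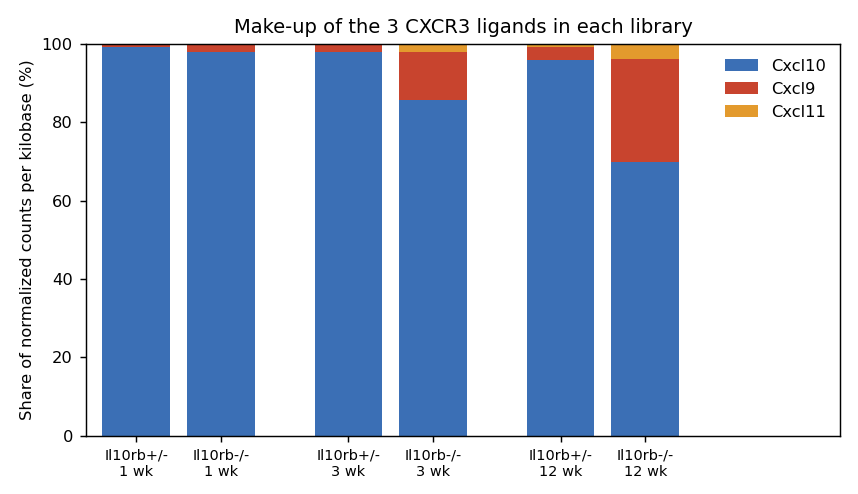
Share of each CXCR3 ligand in their summed normalized counts per kilobase of exon (y axis, %), with 1 stacked bar per library. Cxcl10 fills 99.3% of the bar in 1-week Il10rb+/- MΦs and 69.8% in 12-week Il10rb-/- MΦs, where Cxcl9 takes 26.3%.

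Other genes overlap the chemokine genes on the other strand, and the strand setting of the authors' counting is not given in the sources used here. Art3, which encodes a member of the ADP-ribosyltransferase family, spans Cxcl10 and Cxcl11 and shares 133 exon bases with Cxcl10, 5.91% of its 2252. Art3 had 4061, 1779 and 2247 normalized counts in Il10rb+/- MΦs of 1, 3 and 12 weeks and 1989, 2275 and 2716 in Il10rb-/- MΦs. Its log2 ratios, -1.03, 0.35 and 0.27, had the same signs as those of Cxcl10. The reads of Art3 came to between 0.177 and 0.220 of those of Cxcl10 in all 6 libraries. Whether these reads stem from one gene or from both cannot be told apart from gene totals. Zmynd15 shares 552 exon bases with Cxcl16, and its log2 ratios were 0.17, 0.29 and -0.12. The pseudogene Gm2673, not in the deposited values, covers 1582 of the 3794 exon bases of Cxcl11.

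**Figure D4:**
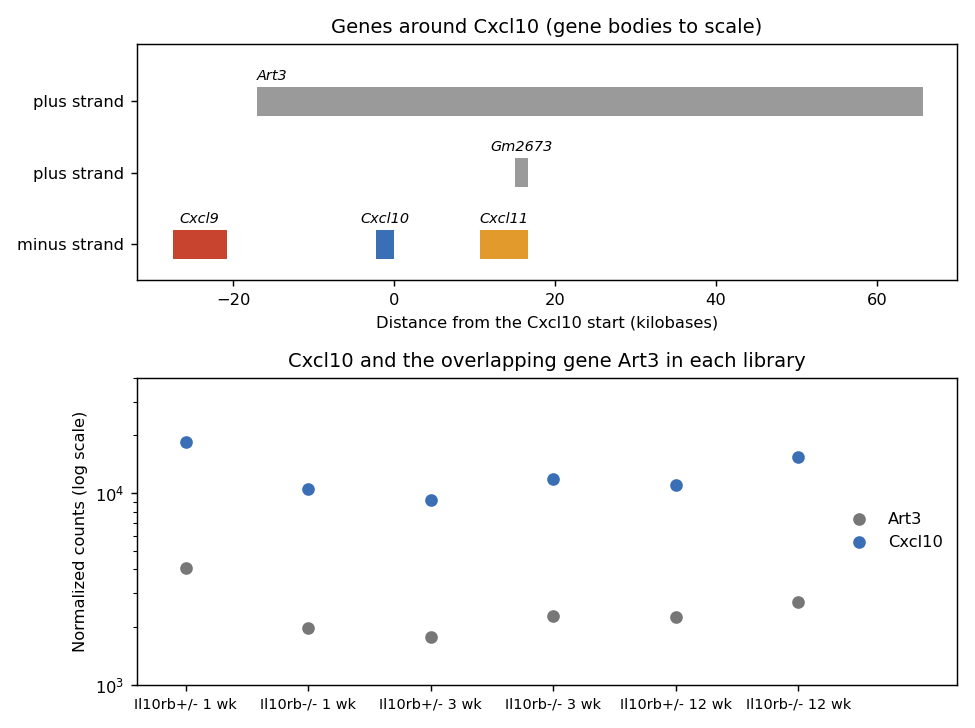
Top, gene bodies around Cxcl10 drawn to scale by strand, against distance from the Cxcl10 start in kilobases. Bottom, normalized counts of Cxcl10 and Art3 (y axis, log scale) in each library, where Art3 reads stay between 0.177 and 0.220 of the Cxcl10 reads.

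None of the 6 receptor and processing genes was called by limma across ages. All 6 were lower in Il10rb-/- MΦs at 1 week, 3 were higher at 3 weeks and 4 at 12 weeks. Of all genes tested, 46%, 52.1% and 52% were higher at these ages. At 1 week the counting intervals of Cxcr3, Cxcr6 and Ackr3 included no difference. Their median log2 ratio was -0.43 at 1 week with Ackr3 taken against 3 reads, 0.06 at 3 weeks and 0.71 at 12 weeks. Over all genes tested it was -0.04, 0.02 and 0.04. Cxcr6, the CXCL16 receptor of T cells, had 42.6, 4.87 and 15.1 normalized counts in Il10rb+/- MΦs of 1, 3 and 12 weeks and 24.0, 41.3 and 425 in Il10rb-/- MΦs. Its 12-week log2 ratio was 4.81 (4.30 to 5.37), and only 2 reads lie behind the 3-week Il10rb+/- value. Cxcr3, the receptor of the other chemokines, went the other way at 12 weeks, from 174 in Il10rb+/- to 51.6 in Il10rb-/- MΦs (log2 ratio -1.75, interval -2.12 to -1.40). Its ratios were -0.19 and -0.26 at 1 and 3 weeks.

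T and NK cell markers bear on the reading of these receptors. Of the 13 markers 12 were listed, and their summed normalized counts ran from 1321 to 3343, lowest in the 12-week Il10rb-/- library. Cd4, which mouse MΦs can also carry, was the highest of them in the other 5 libraries. In the 12-week Il10rb-/- library Lck, a T cell kinase, was highest at 303, and no listed marker was at 0. Cd8a was at 0 in the other 5 libraries. Cd3e and Cd3g, chains of the T cell receptor complex, reached 93.0 and 154 normalized counts in the 12-week Il10rb-/- library, and both were highest there. Others went the other way at 12 weeks, Cd2 from 748 in Il10rb+/- to 175 in Il10rb-/- MΦs and Cd4 from 1712 to 210. Of the 7 markers that reached 50 normalized counts in a library, 5 were higher at that age, where 52% of all genes tested were. The part of such cells in the Cxcr6 value, and in the Ifng value below, was not tested.

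Adam10 and Adam17, the proteases that release CXCL16, had log2 ratios of -0.33, -0.01 and 0.65 (Adam10) and -0.46, 0.14 and 0.77 (Adam17) at the 3 ages in order. Dpp4, which trims the amino end of the CXCR3 ligands, went from 479 in Il10rb+/- to 247 in Il10rb-/- MΦs at 1 week and from 643 to 1142 at 12 weeks, with log2 ratios of -0.95, 0.66 and 0.83. Ackr3, a scavenging receptor for CXCL11 and CXCL12, went from 133 to 31.8 normalized counts at 12 weeks, a log2 ratio of -2.07 (-2.53 to -1.63). It had 6 reads in the 1-week Il10rb+/- library and none in its partner. Taken against 3 reads there it was 1.32-fold lower, with a counting interval that includes no difference.

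Of the 19 genes of interferon sensing and transcription, none was called by limma across ages. At 1, 3 and 12 weeks, 4, 14 and 18 of them were higher in Il10rb-/- MΦs, where 46%, 52.1% and 52% of all genes tested were. Their median log2 ratios were -0.24, 0.21 and 0.59, against -0.04, 0.02 and 0.04 over all genes. Ifngr1 and Ifngr2, the interferon-γ receptor, had log2 ratios of 0.59 and 0.31 at 12 weeks, and Ifnar1 and Ifnar2, the type I interferon receptor, 0.50 and 0.16. Ifnar2, Ifnar1 and Ifngr2 lie beside the deleted Il10rb on chromosome 16. At the same age the kinases Jak1 and Jak2 had 0.12 and 0.99. Stat2 and Irf9, both parts of the complex that binds ISREs, had 1.33 and 0.50. Irf7, which amplifies type I interferon, had -0.59, 1.06 and 1.95 at 1, 3 and 12 weeks. Irf1, an early transcription factor of interferon-γ signalling, had 10356 and 5997 normalized counts at 1 week, a log2 ratio of -0.79 like that of Cxcl10, then 0.08 and 0.57. Irf8 had 0.72 and Socs1, a feedback inhibitor, 1.34 at 12 weeks.

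Of the interferon genes themselves, Ifng was close to absent apart from the 12-week Il10rb-/- library. It had 0 to 4 reads in the 4 younger libraries. In the 12-week pair it went from 24.1 to 506 normalized counts (log2 ratio 4.39, interval 3.98 to 4.83). Ifnb1 was lower in Il10rb-/- MΦs at each age, with 1557, 786 and 1233 normalized counts in Il10rb+/- and 309, 507 and 101 in Il10rb-/- libraries. Its log2 ratios were -2.33, -0.63 and -3.61 (limma log2 difference -2.19, adjusted p = 0.627).

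Interferon-induced genes were set beside the chemokines in 2 lists, by the interferon to which they respond more. Of 21 interferon-γ leaning targets 20 passed the filter on low values, and none was called by limma across ages. Their median log2 ratio was -0.43 at 1 week, 1.01 at 3 weeks and 2.44 at 12 weeks. At 3 weeks 7 and at 12 weeks 15 of them were over 3-fold higher, where 1.34% and 4.03% of all genes tested were. At 1 week 1 was over 3-fold lower, where 0.75% of all genes were. Iigp1, an immunity-related GTPase, had log2 ratios of 0.31, 4.18 and 4.52. Nos2, the inducible nitric oxide synthase, had 5 reads in 3-week Il10rb+/- and 77 in 3-week Il10rb-/- MΦs, a log2 ratio of 2.48 (1.19 to 4.14) after scaling. At 12 weeks its log2 ratio was 8.48 (7.88 to 9.15). At the other end of the list, Ciita, the master regulator of MHC class II genes, had -0.18, 0.22 and 0.72, and the guanylate-binding protein gene Gbp8 had -0.75, 0.52 and 1.25.

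The 20 type I interferon leaning targets all passed the filter, and none was called by limma across ages. Their median log2 ratio was -0.66 at 1 week, 0.62 at 3 weeks and 0.70 at 12 weeks, and 3 were over 3-fold lower at 1 week, as were 0.75% of all genes tested. At 3 and 12 weeks, 2 and 3 were over 3-fold higher, as were 1.34% and 4.03% of all genes tested. Oas3 and Isg20, both antiviral effectors, had 1.09 and 2.25 at 3 weeks and 2.38 and 0.26 at 12 weeks. Ifit1 and Ifit2, which act against foreign RNA, had -2.59 and -2.37 at 1 week and -1.29 and -0.75 at 12 weeks. Among the chemokines, the ratios of Cxcl9 and Cxcl11 exceeded the medians of both lists at 3 and 12 weeks, and those of Cxcl10 lay below both medians at each age.

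**Figure D5:**
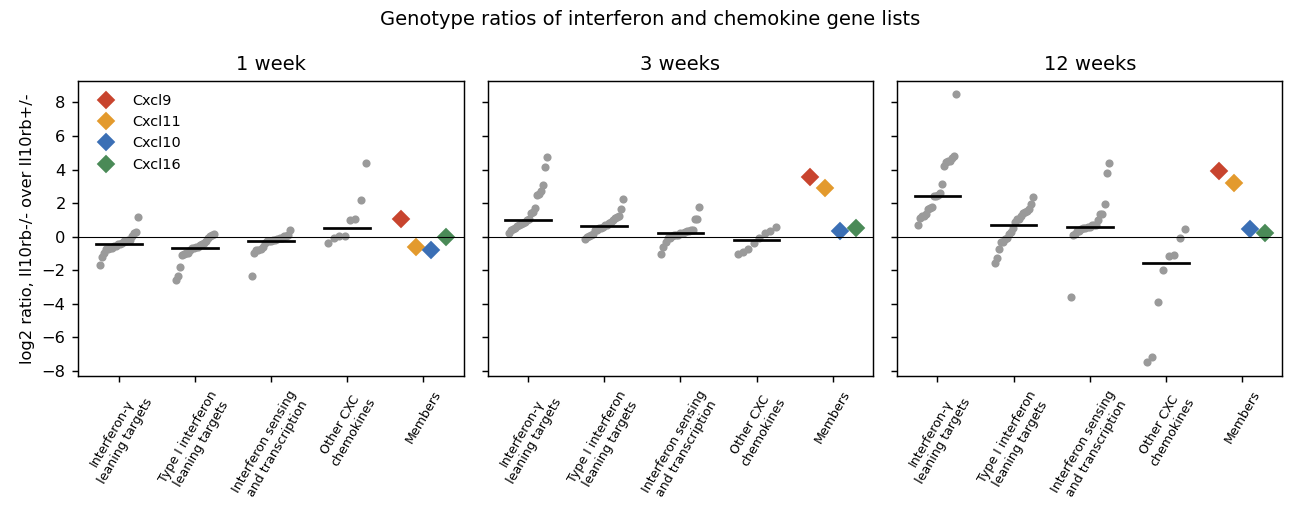
Log2 ratio of Il10rb-/- over Il10rb+/- normalized counts (y axis) at each age for the genes of 4 lists that passed the filter (grey points, sorted, with the list median as a black line) and for the chemokines (diamonds). Genes with no reads in a library are drawn with 0 shown as 1. The interferon-γ leaning median moves from -0.43 to 2.44 between 1 and 12 weeks, and Cxcl9 at 3.92 lies above it.

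The other CXC chemokines gave a different picture. Of 11 genes 9 were listed and 8 passed the filter, none was called by limma across ages, and the median log2 ratio was 0.53 at 1 week, -0.22 at 3 weeks and -1.58 at 12 weeks. Cxcl3, a neutrophil attractant, had 0.98, 0.58 and 0.49. Cxcl13, a B cell attractant, had no reads in the 1-week Il10rb+/- library. Taken against 3 reads there, its partner was 7.05-fold higher, and the counting interval of the log2 ratio began at 2.33. The later ratios were -0.92 and -1.98 on the log2 scale. Pf4 (Cxcl4) had 8082 and 56.7 normalized counts at 12 weeks, a log2 ratio of -7.16. Ppbp (Cxcl7) had 178 normalized counts in 12-week Il10rb+/- MΦs and no reads in their partner. Taken against 3 reads it was 93.1-fold lower, and the counting interval of the log2 ratio reached up to -6.23.

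The 3 genes whose profile over the 6 libraries was nearest to each chemokine were found by the root mean square difference of log2 values, each centred on its own mean. For Cxcl9 they were H2-Q7, Slfn4 and Gbp2, with differences of 0.45, 0.49 and 0.53. For Cxcl11 they were Slfn1, H2-Q7 and Gbp2 (0.33, 0.41 and 0.48). Few reads lie behind the low end of Slfn4, which had 2.97 (Il10rb+/-) and 5.99 (Il10rb-/-) normalized counts at 1 week and 9.73 in 3-week Il10rb+/- MΦs. Cxcl9 and Cxcl11 lay 0.56 from each other. H2-Q7 belongs to a family of near-identical MHC class I genes and Slfn1 and Slfn4 to the Schlafen family, so their reads may be shared with copies. For Cxcl10 the nearest were Cenpq and Ammecr1 (0.06 and 0.07) and for Cxcl16 Rars, Eif2s3x and Ifi30 (0.06, 0.06 and 0.06). Cxcl10 lay 2.04 from Cxcl9, 1.88 from Cxcl11 and 0.32 from Cxcl16. Flat profiles have near neighbours by this measure, and the 6 libraries are the same for all genes.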

How the data were processed

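RNA-seq of 6 libraries was analysed. The authors trimmed reads with Trim Galore, used TopHat to place them on mm10 and HTSeq to count them per gene, and scaled each library by its DESeq size factor. The deposited signal shows a count of 0 as 1. Versions, annotation and strand setting are not given in the sources used here. The labels name a SmartSeq kit and pools of 3 to 5 mice at 1 week, and the methods name oligo dT beads. Apart from these, all values were whole multiples of 1 step per library (tolerance 0.0001 reads), so reads were read back. Count models were not used because of the replaced zeros.

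limma 3.58.1 (R 4.3.3, trend, empirical Bayes) was fitted on log2(value + 1) for genes at 50 or more in at least 1 library, with age and genotype. Intervals were exact (scipy 1.17.1). A fold against a library without reads was taken against 3 reads in it. The model was tested on simulated data in which a gene kept the same fold at every age. That setting differs from ratios that change with age, as those of Cxcl9 did. Coordinates are from GENCODE M21, in which 14085 of 14097 genes were found. The members and lists were chosen with earlier results of these data known. Genes named from the interferon-induced and other CXC lists are the 2 highest and 2 lowest by mean log2 ratio. Replicates within a group do not exist, so p-values rest on spread between ages, moderated over genes, and not on spread between mice of a group. Some genes that this rule or the lists would name are not reported here.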

Additional observations from a re-analysis of the deposited data

Results flagged for a closer look

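Cxcl10 differed between ages in the direction of its genotype ratio. The log2 ratio of Il10rb-/- over Il10rb+/- was -0.81 at 1 week, 0.36 at 3 weeks and 0.48 at 12 weeks, with 1 library per group, and the difference was not tested. Its change from 1 to 3 weeks was -1.004 in Il10rb+/- and 0.17 in Il10rb-/- MΦs, and Cxcl16 gave -0.32 and 0.22. The same 1-week and 3-week libraries lie behind each of these values, and these differences were not tested either.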

How the results depend on the processing

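Leaving out 1 age at a time gave log2 differences across ages of 2.29 to 3.73 for Cxcl9 (limma adjusted p = 0.0133 without 12 weeks and 0.00773 without 1 week, 0.429 without 3 weeks), -0.22 to 0.42 for Cxcl10 (-0.16 without 3 weeks) and 1.15 to 3.05 for Cxcl11 (limma adjusted p = 0.0225 without 1 week). It gave 2 to 51 genes called higher and 1 to 10 called lower. A pseudocount of 10 or no age term called 1 gene lower, Il10rb. Total-read scaling turned Cxcl10 across ages to -0.075 and Cxcl16 at 12 weeks to -0.028, and gave 3.70, 0.26 and 3.00 for Cxcl9, Cxcl10 and Cxcl11 at 12 weeks and 0.48 for Cxcl16 at 3 weeks. It moved the median of all genes at 12 weeks by -0.22. Of the genes over 3-fold, 304 were higher and 83 lower at the first age, 148 and 71 at the second, and 446 and 1106 at the last. A pseudocount of 10 left 98 and 27 at 1 week and 72 and 13 at 3 weeks, a share of higher genes of 84.7% against 67.6%. A filter on the 2 libraries compared left 90 and 43 at 1 week (67.7% higher against 78.6%) and 78 and 27 at 3 weeks. No filter gave 836 and 288, 472 and 423 (52.7% higher), and 780 and 2167 at 1, 3 and 12 weeks. Under Pearson correlation 1, 2, 0 and 0 of the 3 nearest genes of Cxcl9, Cxcl10, Cxcl11 and Cxcl16 were shared. The length used per kilobase was an alternative chosen after seeing the data. In all, 81 other values kept their direction and side of the threshold, or moved within their error. The cause of these shifts was not tested.

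No paired analysis was possible because the labels give no replicate numbers that pair mice, beyond the pairing by age that the model holds and the fit without the age term leaves out. The edgeR and pydeseq2 alternatives were not run. At 80 reads or fewer, as for Cxcl9 and Cxcl11 in the 3-week Il10rb+/- library, depth limits the ratios.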
